A study of Mus musculus with 8 samples.

Results

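Of the 1198 array probes designed against mouse olfactory receptor genes (*Olfr* genes), 68 gave a signal well above background in the hypothalamus (HT) of all 8 mice measured. They were chosen by the flag that the scanner software gives to such a signal, a probe counting on an array where at least 50% of its spots carried the flag. The 68 members, 1 probe for each of 68 genes, made up 5.68% of all *Olfr* probes, which stand for 1101 genes. The flags chose the members, so their being detected is a description and not a finding. They were then compared between the MS and control groups, which the flags did not use.

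The MS group held 4 male C3H/HeN mice that had spent 180 min of each day without their mother between postnatal day (PND) 2 and 14, while she was exposed to unpredictable stress. The control group held 4 male C3H/HeN mice that stayed with an undisturbed dam. All 8 mice went through operant tests for palatable food and a fast of 12 h before the brain was taken, and the sources used here do not state their age at that time. The mice are called by their labels, MS 5.3, 7.1, 7.2 and 7.6 and control 6.2, 8.2, 8.4 and 8.5, and the HT of each gave 200 ng of RNA for 1 array. Nothing in the labels says which mice were littermates, so that the p-values reflect only how these individual animals spread.

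Olfactory receptors are G protein-coupled receptors with which the sensory neurons of the nose detect odorants. They form the largest gene family of the mouse, and each mature olfactory sensory neuron expresses a single receptor gene from 1 allele. In these neurons the receptor acts through the G protein Gαolf (*Gnal*), adenylyl cyclase 3 (*Adcy3*) and a channel opened by cyclic AMP (*Cnga2*, *Cnga4*, *Cngb1*). Transcripts of some receptors have also been found outside the nose. *Olfr78* serves in glomus cells of the carotid body and in the kidney, and *Olfr544* is known from liver, fat and pancreatic cells as a receptor for azelaic acid. Most receptor genes have their whole coding sequence in 1 exon and lie in clusters of close relatives, so that probes of different genes can resemble each other.

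The sequences of a few probes show what the signals rest on. The probe of *Olfr1428* (mm9 chr19:12183245-12183304, minus strand) had the smallest p between the groups. It has no stretch of 15 bases in common with any probe of another gene, so that no base is in capitals:
Olfr1428: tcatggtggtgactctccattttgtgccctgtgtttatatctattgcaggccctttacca
The member *Olfr373* has a further probe that overlaps the first by 20 bases on chromosome 8, and *Olfr965* has one that overlaps by 26 bases on chromosome 9. Both genes span only a coding length in RefSeq (assembly GRCm38.p6). The member probes also share at least 15 bases with probes of other genes, 3 for *Olfr373* and 30 for *Olfr965*. The longest such stretches are 17 bases with *Olfr1499* and 21 bases with *Olfr145*, and they are not marked here. In these pairs, capitals mark the bases that both probes of a gene hold:
Olfr373 at chr8:74624499-74624558, above background on 8 arrays: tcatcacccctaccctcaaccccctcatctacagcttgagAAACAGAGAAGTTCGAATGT
Olfr373 at chr8:74624539-74624598, above background on 2 arrays: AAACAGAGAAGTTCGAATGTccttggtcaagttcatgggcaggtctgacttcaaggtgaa
Olfr965 at chr9:39527651-39527710, above background on 8 arrays: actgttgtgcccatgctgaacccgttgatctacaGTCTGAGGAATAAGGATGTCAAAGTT
Olfr965 at chr9:39527685-39527744, above background on 1 array: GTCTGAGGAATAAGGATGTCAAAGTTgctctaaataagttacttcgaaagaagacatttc
Positions are on the mouse build mm9, as in the headers of the array files, and both pairs lie on the plus strand. On most arrays the overlapping probes of a gene thus came out on opposite sides of the background flag.

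The same held for every member with a further probe. Of the 68 member genes, 7 had 1 further probe each (*Olfr629*, *Olfr373*, *Olfr1115*, *Olfr75-ps1*, *Olfr190*, *Olfr1036* and *Olfr965*), and none of these 7 was above background on 4 or more arrays. On 0 arrays were 4 of them, and on 1 to 3 arrays the other 3. Among all other genes on the array, a probe that was above background on all 8 arrays had a further probe that was so too in 87.0% of 18282 pairs. These pairs came from 6159 genes and were not matched to the members for signal level. Values of a member are therefore those of 1 probe in what follows.

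Most *Olfr* probes were not detected on any array. On 0 arrays were 878 of the 1198 *Olfr* probes (73.3%), against 23.4% of all 55681 probes. All 8 arrays detected 58.9% of all probes. Between these ends lay 252 *Olfr* probes that were above background on 1 to 7 arrays, of which 125 were so on only 1. The other chemoreceptor families of the array were detected on all 8 arrays at shares between 0 and 66.7%. These were 13 of 178 probes (7.30%) of *Vmn1r* genes and 16 of 122 (13.1%) of *Vmn2r* genes, which encode pheromone receptors of the vomeronasal organ. For the trace amine-associated receptors (*Taar*) it was 0 of 15, for the sweet and umami taste receptors (*Tas1r*) 2 of 3, and for the bitter taste receptors (*Tas2r*) 2 of 37 (5.41%).

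**Figure D1:**
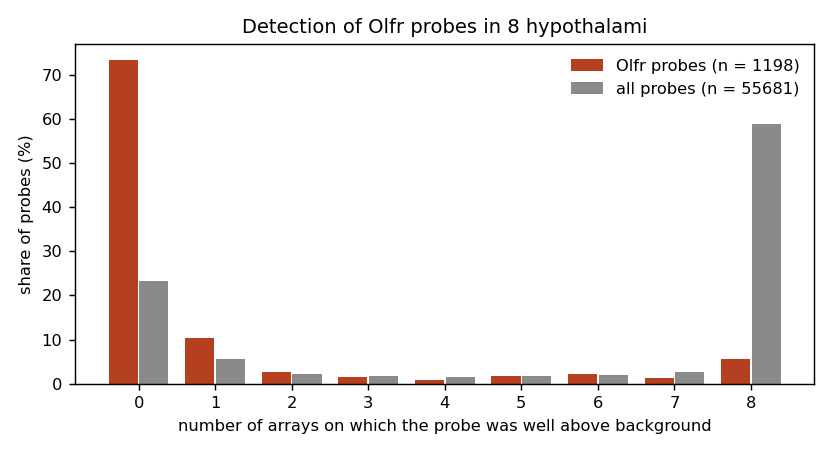
Share of probes (percent) by the number of arrays, 0 to 8, on which a probe was well above background, for the 1198 *Olfr* probes and for all 55681 probes. *Olfr* probes are concentrated at 0 arrays (73.3%), and all probes at 8 arrays (58.9%).

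Among the receptors known from other tissues, *Olfr544* was a member, whereas *Olfr78* was above background on 0 arrays. *Olfr558*, known from vascular smooth muscle, was above it on 5 arrays and *Olfr1393*, known from the renal proximal tubule, on 3. *Olfr16*, which is expressed in sperm, *Olfr2*, the receptor for octanal, and *Olfr90* were above it on 0. *Olfr30* missed membership on 1 array only, that of control 8.5. Its values were 2.92%, 3.58%, 3.10% and 3.42% in MS mice and 2.55%, 2.43%, 2.69% and 2.22% in control mice, a difference of 0.39 (SE = 0.09, adjusted p = 0.989 in limma). Every MS value lay above every control value, as in 0.788% of all tested probes.

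The number of flagged probes varied between arrays. In MS mice, 172, 132, 184 and 110 *Olfr* probes were above background (5.3, 7.1, 7.2 and 7.6), and in control mice 168, 200, 154 and 99 (6.2, 8.2, 8.4 and 8.5). The groups overlapped in this number. The 4 arrays of slide row 1 had 154 to 200 such probes and those of row 2 had 99 to 168, and each row held 2 MS and 2 control mice. The 17 *Olfr* probes on 7 arrays were missed by the array of MS 7.6 (8 probes), control 8.5 (7 probes) or MS 7.1 (2 probes) alone. These arrays lay in row 2, and that of MS 7.6 had the lowest 75th percentile of signal of all 8, 499 fluorescence units against 751 to 902 on the others.

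**Figure D2:**
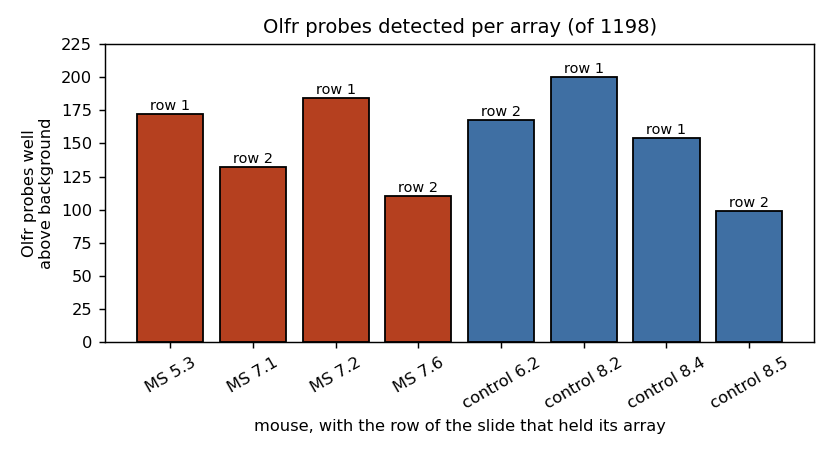
Number of *Olfr* probes well above background on each array (of 1198), MS mice on the left and control mice on the right, with the slide row above each bar. The lowest numbers, 110 and 99, are those of MS 7.6 and control 8.5, both in row 2.

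The members were mostly weak signals. Values are given as percent of the 75th percentile of the same array, which puts the arrays on a common scale. After this scaling the median log2 value of the members was still -3.51 for MS 7.6, against -3.76 to -3.65 for the other mice. Probes bind with different strength, so levels of different probes, and sums over probes, describe signal and do not rank amounts of RNA. The median of a member over the 8 mice lay between 3.0% and 395%. It was under 10% for 42 of the 68 members and over 100% for 3. The 17 probes just outside, on 7 arrays, had medians of 2.38% to 5.63%. No member lacked a value in any mouse, and no non-control spot on the arrays was saturated.

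The 3 members over 100% were *Olfr1466*, *Olfr544* and *Olfr373*. The probe of *Olfr544*, the azelaic acid receptor, had 348%, 357%, 309% and 467% in MS mice, against 389%, 329%, 367% and 323% in control mice. The groups overlapped, and the difference, MS minus control, was 0.06 on the log2 scale (SE = 0.13, 95% confidence interval -0.24 to 0.36). It was -0.06 without MS 7.6, and -0.08 within slide row 1 against 0.20 within row 2. *Olfr1466* had 391%, 432%, 398% and 544% in MS mice and 470%, 358%, 325% and 333% in control mice. *Olfr373* had 115%, 97.7%, 102% and 127% in MS mice and 109%, 87.2%, 102% and 84.3% in control mice. In all 3 the highest value was that of MS 7.6, the array with the lowest 75th percentile.

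No member differed between MS and control mice after adjustment. With limma and Benjamini-Hochberg adjustment over the 37314 tested probes, 0 of the 68 members passed an adjusted p of 0.05, where the share of all tested probes was 0%. The smallest adjusted p of a member was 0.989. Without adjustment, 2 members had a p under 0.05, both higher in MS mice, at a background of 3.40% in both directions, 1.0% higher and 2.40% lower. They were 2.94% of the members. In tissue RNA of this kind, fewer cells of a type and less RNA per cell cannot be told apart. For 64 members the 95% interval of the difference lay within a 2-fold change in either direction, and for 55 within 1.5-fold.

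**Figure D3:**
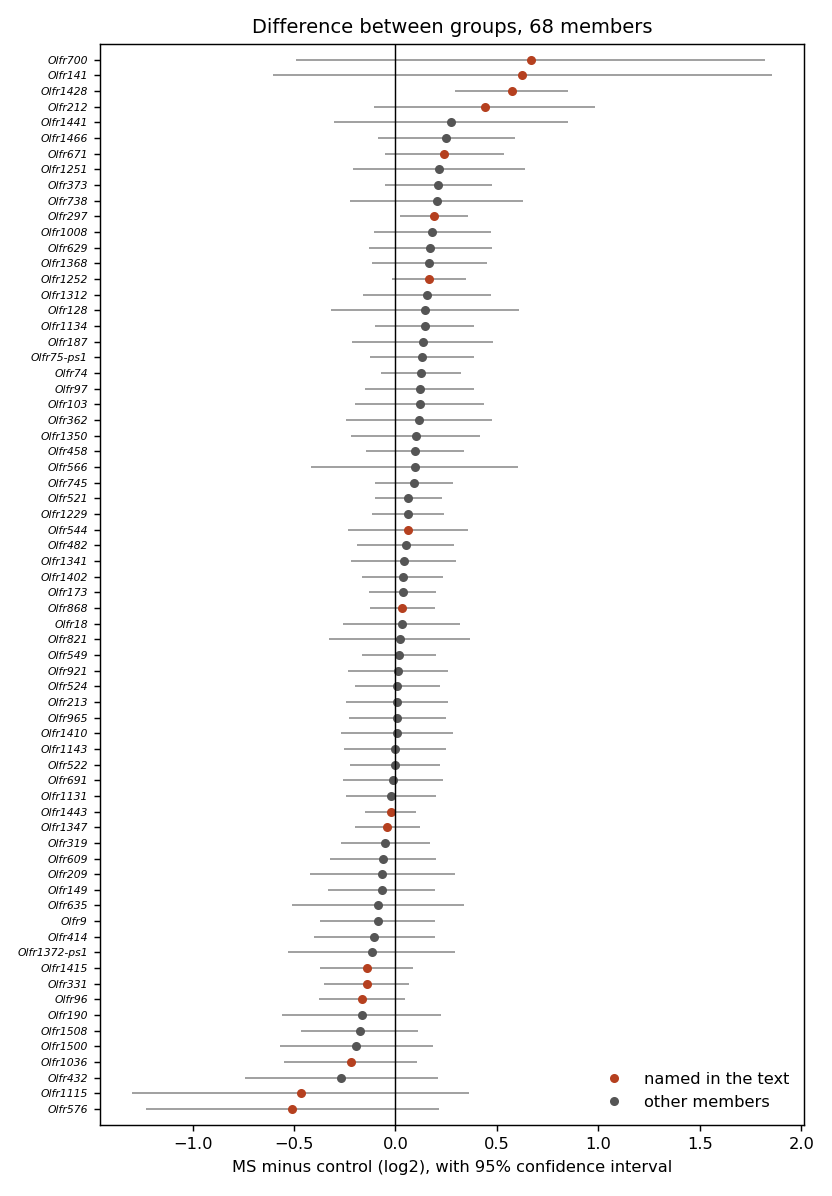
Difference MS minus control (log2) of the 68 members, sorted, with 95% confidence intervals of limma (n = 4 mice per group) and 0 as a vertical line. The differences run from -0.51 to 0.67, and most intervals include 0.

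*Olfr1428* had the smallest p among the members. Its probe had 5.46%, 7.33%, 5.44% and 5.57% in MS mice, against 4.35%, 4.07%, 3.39% and 4.12% in control mice. Each value comes from 1 spot with a weak signal. After background subtraction that signal was 3.35 background SDs at the lowest, in control 8.4, with a median of 4.59. Every MS value lay above every control value. The means were 5.95 ± 0.92% in MS mice and 3.98 ± 0.41% in control mice (SD, n = 4 each), and the log2 difference was 0.57 (SE = 0.12), with an unadjusted p of 0.00137 and an adjusted p of 0.989 in limma. It was the only member whose groups did not overlap, which held for 2.03% of all tested probes (0.788% with MS higher and 1.24% with MS lower). Within slide row 1 the difference was 0.55 and within row 2 it was 0.59, and with normexp background correction it was 0.30.

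The next in order of p with MS higher was *Olfr297*, at a difference of 0.19 (SE = 0.07, adjusted p = 0.989 in limma). Its values were 5.85%, 6.17%, 5.60% and 5.01% in MS mice and 5.0%, 5.02%, 4.76% and 5.01% in control mice. The control values lay close together, and MS 7.6 fell among them. *Olfr1252* had 25.8%, 25.1%, 22.7% and 25.5% in MS mice and 23.6%, 21.2%, 23.9% and 19.9% in control mice, and only MS 7.2 lay inside the range of the controls. In *Olfr671*, which differed by 0.24 (SE = 0.13), MS mice had 7.81%, 8.56%, 7.99% and 10.13% and control mice 8.76%, 6.67%, 7.66% and 6.19%. Control 6.2 was above 3 of the MS mice there. In *Olfr212*, which differed by 0.44 (SE = 0.24), MS mice had 5.90%, 3.12%, 5.50% and 6.67% and control mice 2.98%, 4.49%, 3.99% and 3.74%. The groups overlapped through MS 7.1 alone, without which the difference was 0.68. The lowest signal of *Olfr212* after background subtraction was 2.97 background SDs, in control 6.2. Without MS 7.6 the difference of *Olfr671* was 0.16. Across the 8 mice, the members most like *Olfr1428* were *Olfr297* (Pearson's r = 0.87), *Olfr1466* (r = 0.59) and *Olfr1252* (r = 0.53), out of 67 compared. This is a description, as the members share arrays and their scaling. The r values also take in any difference between the groups, by which *Olfr1428*, *Olfr297* and *Olfr1252* were picked.

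In the other direction, the 5 members of smallest p were *Olfr96*, *Olfr576*, *Olfr331*, *Olfr1036* and *Olfr1415*, with unadjusted p between 0.108 and 0.193. *Olfr96* had 8.41%, 8.06%, 7.89% and 10.03% in MS mice and 10.09%, 8.88%, 9.23% and 10.3% in control mice, a difference of -0.17 (SE = 0.09). MS 7.6 alone lay in the range of the controls. *Olfr576* had 4.86%, 3.97%, 3.81% and 3.43% in MS mice, against 10.2%, 6.28%, 5.01% and 3.20% in control mice, a difference of -0.51 (SE = 0.31). Control mice covered the whole range here, with control 6.2 highest and control 8.5 lowest. Without control 6.2 the difference was -0.22, and without control 8.5 it was -0.78. *Olfr331* had 6.16%, 5.72%, 6.04% and 6.04% in MS mice and 6.23%, 6.62%, 5.88% and 7.86% in control mice, a difference of -0.14 (SE = 0.09). *Olfr1036* had 3.39%, 4.72%, 5.36% and 3.78% in MS mice and 5.42%, 4.91%, 4.59% and 4.88% in control mice, a difference of -0.22 (SE = 0.14). *Olfr1415* had 9.34%, 12.7%, 12.2% and 10.9% in MS mice and 12.6%, 11.97%, 11.8% and 13.1% in control mice, a difference of -0.14 (SE = 0.10). In each of these the MS and control values overlapped. After background subtraction the lowest signal was 2.47 background SDs for *Olfr1036* and 2.85 for *Olfr576*. For *Olfr331*, *Olfr96* and *Olfr1415* it was 4.99, 7.06 and 9.09, and in each of these members the lowest was that of MS 7.6. The difference of *Olfr331* was -0.06 without control 8.5 and -0.03 within slide row 1, against -0.25 within row 2. That of *Olfr1036* was -0.11 without MS 5.3 and -0.33 without MS 7.2, and that of *Olfr1415* was -0.06 without MS 5.3.

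Control 6.2 also stood out in the summed level of 8 pituitary genes, which was 2189% to 3325% in MS mice and 2001% to 29673% in control mice, the highest value being its own. Of these genes, 6 were above background on all 8 arrays, against 58.9% of all probes. The part of pituitary RNA in the value of *Olfr576* was not tested.

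The differences of the 68 members centered close to 0. The difference was above 0 for 44 members (64.7%) and below 0 for 24, against 49.5% of all tested probes above 0. The median difference was 0.04, and -0.001 over all tested probes. The median was 0.14 within slide row 2 but -0.03 within row 1, where 28 of the 68 differences were above 0. It was 0.01 without MS 7.6 and 0.02 without control 8.5, with 38 differences above 0 in either case. MS 7.6 gave the highest value of 23 members and control 8.5 the lowest of 23.

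**Figure D4:**
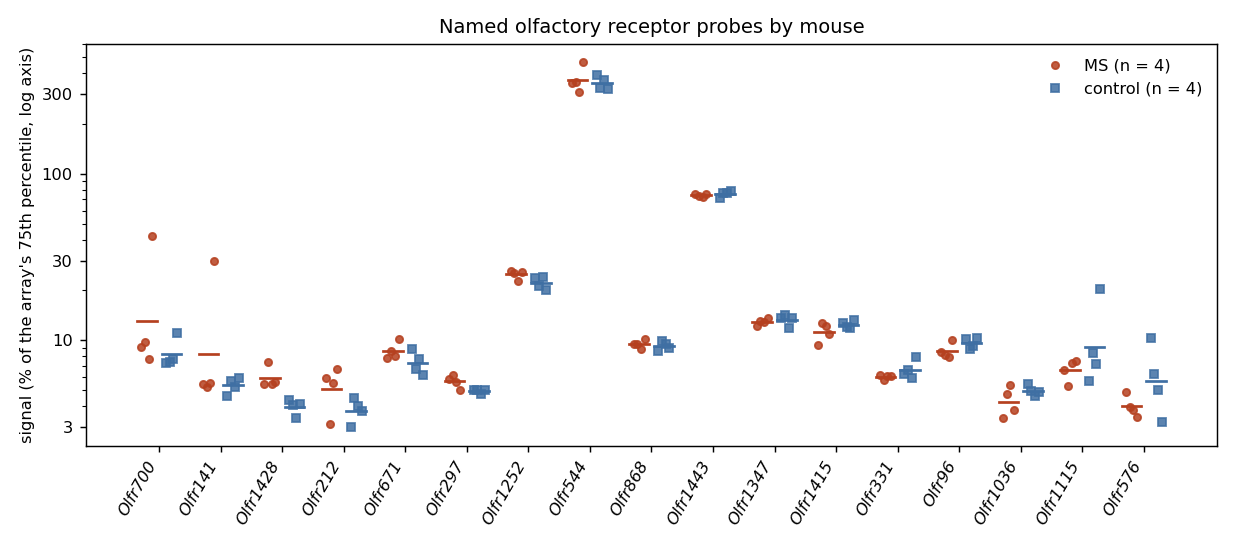
Signal of the 17 named members in each mouse (percent of the 75th percentile of the array, log axis), MS as circles on the left and control as squares on the right of each pair, with lines at the geometric means (n = 4 each), ordered by the difference between groups. Only *Olfr1428* has no overlap between the groups, and *Olfr700*, *Olfr141* and *Olfr1115* each have 1 mouse far above the rest.

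The spread between mice was not the same for all members. The SD over the 8 mice was between 0.05 and 0.88 on the log2 scale, with a median of 0.18, against 0.14 for all tested probes. The most variable were *Olfr141*, *Olfr700*, *Olfr1115*, *Olfr576* and *Olfr212*, and in the first 3 a single mouse made the difference. *Olfr141* had 5.42%, 5.18%, 5.52% and 29.7% in MS mice and 4.60%, 5.68%, 5.23% and 5.94% in control mice. *Olfr700* had 9.11%, 9.75%, 7.71% and 42.0% in MS mice and 7.23%, 7.40%, 7.65% and 11.1% in control mice. *Olfr1115* had 6.56%, 5.27%, 7.27% and 7.48% in MS mice and 5.67%, 8.30%, 7.16% and 20.3% in control mice.

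The high value was that of MS 7.6 for *Olfr141* and *Olfr700* and that of control 8.5 for *Olfr1115*. Each of these values comes from 1 spot that the scanner software had not marked as an outlier. In each of them the mean and the median of the pixels were close, 186 and 178 fluorescence units for *Olfr141*, 219.8 and 216 for *Olfr700* and 202 and 199.5 for *Olfr1115*. Without MS 7.6 the difference of *Olfr141* was 0.01 in place of 0.63, and that of *Olfr700* was 0.10 in place of 0.67. Without control 8.5 the difference of *Olfr1115* was -0.08 in place of -0.47.

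The steadiest members were *Olfr1443*, *Olfr868* and *Olfr1347*. *Olfr1443* had 75.9%, 73.6%, 71.9% and 75.8% in MS mice and 71.2%, 76.4%, 76.0% and 78.6% in control mice, which leaves an interval of -0.15 to 0.10 for the log2 difference. *Olfr1347* had 12.1%, 12.9%, 12.8% and 13.5% in MS mice and 13.5%, 14.05%, 11.9% and 13.5% in control mice. *Olfr868*, the probe of which was printed 10 times on each array, averaged 9.46 ± 0.56% in MS mice and 9.24 ± 0.56% in control mice (SD, n = 4 each). Among its 10 spots the SD within an array was 0.12 to 0.21 on the log2 scale. The only other member with 10 spots, *Olfr74*, had an SD of 0.25 to 0.49 within an array. Part of this spread followed the position on the array, as the mean of a position over the arrays was between 4.23% and 8.86%. All other members rest on fewer spots, so this spread within an array cannot be measured for them.

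The members held more G and C bases than the *Olfr* probes that were not detected. The share of G and C bases had a median of 45% in the 68 members, against 38.3% in the 878 *Olfr* probes on 0 arrays. The share of *Olfr* probes that were members was 0 of 13 under 35% of G and C, 11 of 557 (1.97%) from 35% to under 40%, 19 of 330 (5.76%) from 40% to under 45%, 30 of 245 (12.2%) from 45% to under 50% and 8 of 53 (15.1%) at 50% and over. Over all probes of the array the share in the same classes was 44.1%, 59.4%, 57.5%, 55.3% and 67.7%. The run CCCC, searched as those 4 letters on the strand of the probe, was present in 25% of the members, 5.81% of the *Olfr* probes on 0 arrays and 10.8% of all probes. It occurs in the *Olfr373* probe printed above that was on all arrays. The run GGGG was present in 4.41% of the members, 6.72% of the *Olfr* probes on 0 arrays and 10.7% of all probes.

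**Figure D5:**
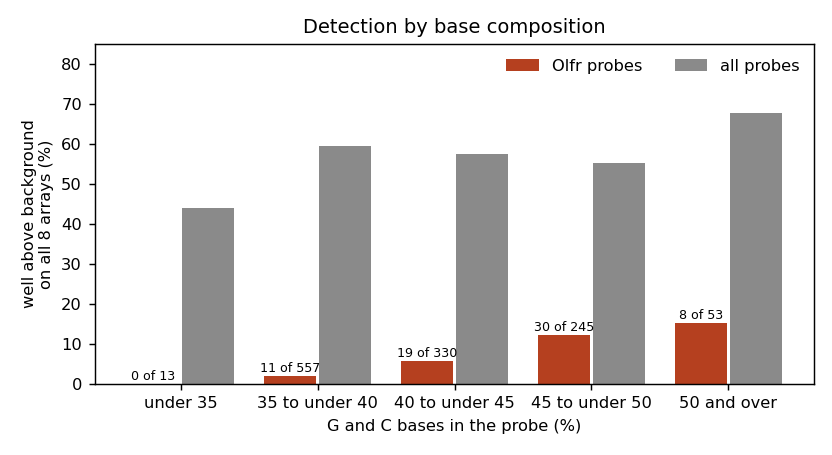
Share of probes (percent) well above background on all 8 arrays by their content of G and C bases (percent), for *Olfr* probes, with members and probes counted above the bars, and for all probes. The *Olfr* share is 1.97% from 35% to under 40% of G and C and 15.1% at 50% and over.

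Fewer members than undetected *Olfr* probes resembled a probe of another receptor. A stretch of at least 15 bases was shared with a probe of another *Olfr* gene by 14 members (20.6%), against 424 (48.3%) of the *Olfr* probes on 0 arrays. With a probe of a gene outside the family it was shared by 20 members (29.4%), against 247 (28.1%), and with such a probe that was itself above background on all 8 arrays by 11 members (16.2%), against 111 (12.6%). The probe of *Olfr141* shares 22 bases with that of *Olfr279*, which was above background on 1 array. They are in capitals here, since *Olfr141* was the most variable member:
Olfr141 at chr2:86646284-86646343, minus strand: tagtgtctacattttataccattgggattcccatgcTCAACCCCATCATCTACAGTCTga
*Olfr1251* shares 18 bases with *Npnt*, a matrix protein gene outside the family whose probe was above background on all 8 arrays.

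The members were spread over the olfactory receptor clusters. Chromosome 7 held 17 of its 257 *Olfr* probes as members (6.61%), chromosome 2 held 13 of 308 (4.22%), and chromosomes 9 and 19 held 5 each, of 146 and 66. The nearest probe of a gene outside the family that was above background on all 8 arrays lay at a median distance of 87.4 kb from the members, against 174 kb from the *Olfr* probes on 0 arrays. Within 10 kb there was such a probe for 1 of 67 members with a position (1.49%) and for 1.60% of the *Olfr* probes on 0 arrays. In RefSeq, 68 of 68 members were matched, 67 by accession and 1 by symbol. Of these, 2 are annotated as transcribed pseudogenes (*Olfr75-ps1* and *Olfr1372-ps1*), and 2 overlap a gene outside the family (*Olfr524* with *Cd163l1* and *Olfr1508* with *Tcra*), which is 2.94% of the members and 1.96% of the *Olfr* genes on 0 arrays.

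The machinery that carries the signal of these receptors in the nose was measured too. Of a list of 20 olfactory transduction genes, 19 were above background on all 8 arrays, where the share of all probes was 58.9%. A listed gene with several probes is counted by its brightest tested one and the share counts every probe, so these numbers are not alike. Whether the signals of the listed genes come from olfactory neurons was not tested. Of the 20, 0 passed the test in either direction (0 also at an unadjusted p of 0.05, limma). Their median difference was 0.02, with 11 above 0 and 9 below. *Gnal*, encoding Gαolf, differed by 0.10 (SE = 0.06) and had the smallest p with MS higher. *Rtp2*, encoding a protein that brings receptors to the cell surface, differed by -0.10 (SE = 0.07) and had the smallest p with MS lower. *Rtp1*, which has the same role, was above background on 4 arrays only.

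*Omp*, the marker of mature olfactory sensory neurons, had 22.5%, 28.5%, 20.1% and 24.8% in MS mice and 26.0%, 26.8%, 26.9% and 24.8% in control mice. *Cnga2*, a subunit of the channel, had 20.9%, 17.2%, 16.7% and 23.0% in MS mice and 20.3%, 17.7%, 21.4% and 19.5% in control mice. The groups overlapped in both. Of 8 markers of these neurons, 7 were above background on all 8 arrays, where the share of all probes was 58.9%. *Rtp1* was not, and none was at 0 in every mouse. The summed level of the 8 was 1620% to 1908% in MS mice and 1356% to 1817% in control mice. Most of this sum was 1 gene, *Gng13*. It had 1521%, 1668%, 1658% and 1797% in MS mice and 1666%, 1671%, 1712% and 1250% in control mice.

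Of 10 genes that act in the choice of a receptor gene in these neurons, all 10 were above background on all 8 arrays. The share of all probes, without a choice of the brightest, was 58.9%. Of these 10, 0 passed the test (0 also at an unadjusted p of 0.05, limma). Their median difference was 0.04. *Atf5*, a transcription factor of the feedback that locks the choice, differed by -0.10 (SE = 0.06), and *Ebf3*, a transcription factor of the Olf/Ebf family, by 0.24 (SE = 0.22). *Atf5* had the smallest p with MS lower and *Ebf3* the smallest with MS higher. The labelled tissue was checked with 10 hypothalamic genes such as *Agrp* and *Avp*. All 10 were above background on all 8 arrays, against 58.9% of all probes. None of them passed the test in limma, and 3 had an unadjusted p under 0.05. Over all tested probes that share was 3.40% (1.0% higher and 2.40% lower). *Hcrt*, encoding the orexins, differed by -1.45 (SE = 0.62) and *Pmch*, encoding melanin-concentrating hormone, by -0.46 (SE = 0.13), while *Npy*, encoding neuropeptide Y, differed by 0.19 (SE = 0.07). Their part in the values of the members was not tested. Of 4 markers of the olfactory bulb, 3 were above background on all 8 arrays, where the share of all probes was 58.9%. *Eomes*, a transcription factor of the projection neurons of the bulb, was so on none.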

How the data were processed

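The HT arrays of 8 mice were analysed, grouped by their labels. The authors deposited 1 scanner file per array, made with Agilent Feature Extraction 10.10.1.1, which gives each spot a processed intensity with the background subtracted and a flag for a signal well above background. A table of log2 values that the authors deposited, made with limma per the submitters' processing notes, served as an alternative, with no source used here that gives its normalization. The headers name the build mm9 and a design number other than that in the methods.

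Controls and outlier-flagged spots were removed, log2 intensities were averaged per probe, and each array was scaled to its own 75th percentile. The 37314 probes above background on at least 4 arrays were tested, MS against control, with lmFit and eBayes (R 4.3.3, limma 3.58.1), two-sided, with Benjamini-Hochberg adjustment at 0.05. The fit was tested on simulated data. With 4 arrays per group the number of arrays limits the precision. Members, gene lists and alternatives were chosen with earlier results of these data known.

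The members named are the 5 of smallest p in each direction, all whose groups do not overlap, the 5 most and 3 least variable by SD, and those known from other tissues, and for each list the genes with the lowest p, 1 higher and 1 lower. Where a listed gene has several probes, the brightest tested one on average was used. The share of all probes set beside the counts of listed genes has no such choice. *Olfr1466* and *Olfr373*, and the genes with a further probe or a shared stretch, were named after their values were seen. The genome of mm9 was not used here, and names and neighbors come from RefSeq (GRCm38.p6).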

Additional observations from a re-analysis of the deposited data

Results flagged for a closer look

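In groups of 4 mice, a value was picked out where the gap to its nearest neighbor was a larger part of the range of the group than Dixon's 95% critical value, which chance gives in about 1 of 20 groups. Of 46 groups looked at, 7 had such a mouse. Most of the 46 were groups of the named members, some of which were named for their large SD. The count of 7 can therefore not be set against the chance share. Over all members such a mouse was found in 12 of 136 groups (8.82%), and over all tested probes in 6.15%. MS 7.6 and control 8.5 were the mouse that stood apart in 4 of these 12 groups each.

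MS 7.6 stood apart for *Olfr141* (0.964 of the range), at a log2 value of -1.75 against -4.27 to -4.18 in the other MS mice, and for *Olfr700* (0.862 of the range), at -1.25 against -3.70 to -3.36. Control 8.5 stood apart for *Olfr700* among the controls (0.867 of the range), at -3.17 against -3.79 to -3.71. MS 7.1 was higher than the other MS mice for *Olfr1428* (0.919 of the range), at -3.77 against -4.20 to -4.17, and without it the difference between the groups was 0.47. Control 8.4 was lower than the other controls for *Olfr297* (0.920 of the range), at -4.39 against -4.322 to -4.316. The summed level of the markers of olfactory sensory neurons was lowest in control 8.5 (0.914 of the range), at 1356% against 1777% to 1817%. *Gng13* made up most of it, at 1250% there against 1666% to 1712% in the other controls. The summed level of the pituitary genes was highest in control 6.2 (0.936 of the range), at 29673% against 2001% to 3768%.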

How the results depend on the processing

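No member passed an adjusted p of 0.05 under any alternative: the authors' table, quantile or median scaling, normexp (offset 50), a stricter or no filter, an intensity trend in the variance, a block for the slide row, a random block for the first part of the mouse number, either row alone, each mouse left out, or an adjusted p of 0.10. Without 1 mouse the number past the test was 0 to 0, also for the transduction and choice lists. The smallest adjusted p of a member was 0.326, that of *Olfr1428* with the random block, and its range over the alternatives was 0.326 to 0.9999. The estimated correlation of that block was -0.19, and each first part of a mouse number occurs in only 1 group. With that block 3370 of all tested probes had an unadjusted p under 0.05 in limma, against 1270 in the main fit. Low p-values were thus more frequent there over all probes, and not for *Olfr1428* alone. The difference of *Olfr1428* stayed above 0 in 18 alternatives, at 0.30 to 0.62. The authors' table held no value for its probe or for that of *Olfr96*, so neither was tested there. The median difference of the members was 0.14 within slide row 2, and 0.01 to 0.08 with 1 mouse left out. Of 17 named members, 13 kept their direction. *Olfr1036* was at 0.00148 and *Olfr1347* at 0.00196 with normexp, *Olfr868* at -0.0824 and *Olfr544* at -0.0829 within slide row 1, and *Olfr544* at -0.0570 without MS 7.6. There were 68 members, 69 where any 1 spot was enough, 85 on at least 7 arrays, 68 to 76 without 1 mouse, and 188 with the scanner's weaker flag for a positive and significant signal. No paired analysis was possible because no mouse number occurs in both groups. Arrays limit these results by signal over background, since 42 of the members lay under 10% of the 75th percentile.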
